A study of Mus musculus with 2 samples.

Results

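The cells described here are macrophages of the aneurysmal aorta that carried transcripts of Gpnmb, encoding a glycoprotein of lysosomes and the cell surface, and Spp1, encoding the secreted matrix protein osteopontin. Members were selected on their Gpnmb, Spp1 and C1q counts: a cell qualified when at least 200 genes were detected, at most 20% of its unique molecular identifiers (UMIs, 1 per captured mRNA molecule) came from mitochondrial genes, C1qa, C1qb and C1qc together held at least 0.2% of its UMIs, Gpnmb had at least 2 UMIs, and Gpnmb with Spp1 held at least 0.1%. The rule found 341 members among 17274 barcodes, 47 of 8149 in the inhibitor library, against 294 of 9125 in the DMSO library. Both libraries came from abdominal aortic aneurysm tissue of Apoe-/- mice aged 12 weeks in which angiotensin II had induced the aneurysm, so the controls shared the genotype, the angiotensin II and the aneurysm. The knocked-out gene encodes apolipoprotein E, which clears lipoprotein remnants from the blood, and mice without it have raised cholesterol. Mice had received either an inhibitor, without a name, dose or timing in the labels, or DMSO, the vehicle. There was 1 library in each group, of an unstated number of animals, so no difference between the libraries could be tested. Intervals are 95% intervals of counting error only and leave out the differences between animals.

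Macrophages that take up lipoproteins and dying cells carry the cargo to the lysosome, where acid hydrolases release cholesterol and fatty acids. The cell then stores these as cholesteryl esters in lipid droplets or exports them through ABC transporters whose genes the oxysterol receptor LXR switches on. In atherosclerotic plaques and in obese fat, macrophages with Trem2, Gpnmb, Spp1, Fabp5 and Cd5l transcripts are known as lipid-associated or foamy macrophages. Trem2 is a lipid-sensing receptor, Fabp5 a fatty acid carrier, and Cd5l a secreted scavenger receptor family protein that LXR induces in mice.

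Gpnmb lies at chr6:49036546-49070929 on the plus strand of GRCm38 and Spp1 at chr5:104435118-104441050, also on the plus strand. Across the members, the genes whose counts followed Gpnmb most closely in both libraries were Psap, Ctsd, Fabp5, Pld3 and Cd63. Psap encodes the precursor of the saposins, which help hydrolases act on sphingolipids, and Ctsd the lysosomal aspartic protease cathepsin D. Spearman's rho with Gpnmb was 0.71 over 47 inhibitor members and 0.45 over 294 DMSO members for Psap. For Ctsd it was 0.78 over inhibitor members and 0.45 over DMSO members. The cells of a correlation share their library and differ in depth, so these values are a description. The promoter windows of Gpnmb, Psap and Ctsd are printed because these genes varied together among the members and because their windows hold at least 1 of the motifs searched, sites of a kind that transcription factors of lysosomal and macrophage genes can bind. The windows of Pld3, Cd63, Spp1, Trem2 and Cd5l and the second window of Psap held none of them. The windows run from 250 bases before to 50 bases after the RefSeq start in GRCm38.p6, chr6:49036268-49036567 on the plus strand for Gpnmb, chr10:60277378-60277677 on the plus strand for Psap (the first of 2 windows) and chr7:142387778-142388077 on the minus strand for Ctsd. Capitals mark TGACTCA or its reverse complement TGAGTCA, the AP-1 type of site, and CACGTG, the core read by E-box factors such as TFEB, with the longer TCACGTGA that holds it.
Gpnmb: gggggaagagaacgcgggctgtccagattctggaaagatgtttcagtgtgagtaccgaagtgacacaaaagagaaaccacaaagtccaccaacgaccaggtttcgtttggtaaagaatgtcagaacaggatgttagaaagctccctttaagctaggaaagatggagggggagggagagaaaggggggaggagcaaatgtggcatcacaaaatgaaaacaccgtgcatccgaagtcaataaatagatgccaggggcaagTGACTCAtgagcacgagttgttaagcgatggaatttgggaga
Psap: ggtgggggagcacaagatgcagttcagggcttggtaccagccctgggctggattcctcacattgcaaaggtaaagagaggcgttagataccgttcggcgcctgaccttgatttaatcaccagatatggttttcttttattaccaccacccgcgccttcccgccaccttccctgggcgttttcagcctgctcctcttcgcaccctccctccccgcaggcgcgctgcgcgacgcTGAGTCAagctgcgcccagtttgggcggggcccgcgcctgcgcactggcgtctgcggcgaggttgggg
Ctsd: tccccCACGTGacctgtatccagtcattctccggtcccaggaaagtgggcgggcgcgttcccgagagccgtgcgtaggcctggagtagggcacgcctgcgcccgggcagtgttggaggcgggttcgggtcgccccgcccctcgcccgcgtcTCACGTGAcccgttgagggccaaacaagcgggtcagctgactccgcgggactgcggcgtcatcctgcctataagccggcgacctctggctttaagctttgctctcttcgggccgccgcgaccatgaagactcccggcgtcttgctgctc
The Gpnmb window held TGACTCA at bases 259 to 265 and the Psap window TGAGTCA at bases 233 to 239. The Ctsd window held CACGTG at bases 6 to 11 and TCACGTGA at bases 152 to 159. Searched on both strands, TGACTCA was in 5.2%, CACGTG in 7.15% and TCACGTGA in 0.97% of all 32851 windows, and in those of 5.95%, 8.09% and 1.12% of the 27025 genes with a window. CACGTG was in the windows of 5 of 12 genes for cathepsins and legumain, 4 of 16 for lysosomal hydrolases and membrane proteins, and 4 of 12 for v-ATPase subunits. TGACTCA was in those of 0 of 12, 3 of 16 and 0 of 12 genes of the same lists. A match describes these letters and no binding was measured.

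The members were rarer in the inhibitor library. They made up 0.598% of the 7857 cells within the gene and mitochondrial limits there (0.440 to 0.795%) and 3.39% of 8664 in the DMSO library (3.02 to 3.80%), a ratio of 0.176 (0.127 to 0.240). Cells over the C1q minimum, called C1q cells here, were also rarer, at 8.83% of inhibitor cells and 19.0% of DMSO cells. Within the 694 C1q cells of the inhibitor library 6.77% were members (5.02 to 8.90%), against 17.9% of 1646 in the DMSO library (16.0 to 19.8%), a ratio of 0.379 (0.273 to 0.517). The members therefore took a smaller share both of all cells and of C1q cells. Resident-type C1q cells, with at least 2 UMIs of Cd163, Folr2 and Lyve1 together, took 41.4% of the inhibitor C1q cells and 18.6% of the DMSO C1q cells. Cells classed as smooth muscle by Myh11 numbered 2953 of the 7857 inhibitor cells and 584 of the 8664 DMSO cells, and shares of all cells depend on that make-up. Shares in a dissociated tissue also depend on which cells were released and survived, and that part was not tested. The median was 9092 UMIs per cell in the inhibitor library, against 8004 in the DMSO library, and their kept cells shared 15 barcodes, none of them in members.

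The Gpnmb minimum left out most C1q cells. Of the C1q cells, 606 inhibitor cells and 1088 DMSO cells held no Gpnmb UMI, 29 (inhibitor) and 185 (DMSO) held 1, and 59 (inhibitor) and 373 (DMSO) held at least 2. Members with exactly 2 Gpnmb UMIs numbered 4 in the inhibitor library, against 20 in the DMSO library. The lowest share of Gpnmb and Spp1 in a member was 0.113% (inhibitor) and 0.102% (DMSO), and the highest in a C1q cell with the Gpnmb minimum left outside was 0.0836% (inhibitor) and 0.0998% (DMSO). For C1q the lowest member held 0.214% (inhibitor) and 0.209% (DMSO), and the highest cell left out by that minimum alone 0.139% (inhibitor) and 0.190% (DMSO). The cells on either side of each minimum were thus close to each other. A further 76 inhibitor cells and 184 DMSO cells met both Gpnmb minima without enough C1q. Spp1 was not needed for membership: 4 inhibitor members and 29 DMSO members had no Spp1 UMI.

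**Figure D1:**
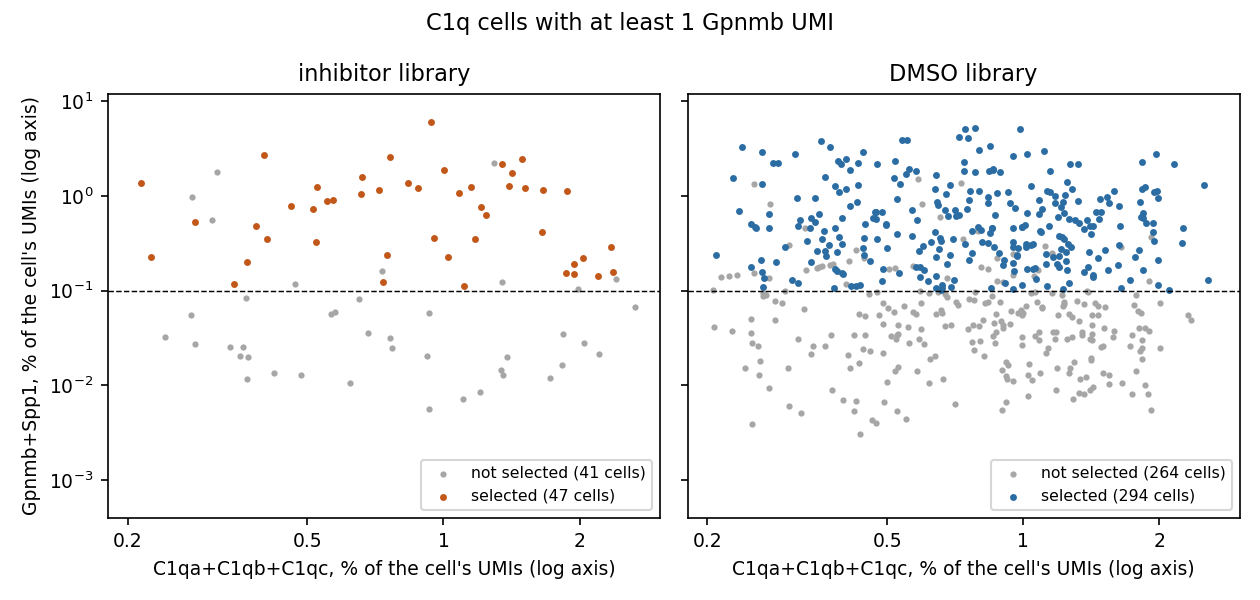
Share of UMIs from C1qa, C1qb and C1qc (x axis, %) and from Gpnmb and Spp1 (y axis, %), both on log axes, in C1q cells with at least 1 Gpnmb UMI, in the inhibitor library (left) and the DMSO library (right), with members in colour, other C1q cells in grey and the 0.1% minimum as a dashed line. The inhibitor panel has 47 members and the DMSO panel 294, and grey cells above the line hold 1 Gpnmb UMI.

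The members carried the markers named in their label. Gpnmb, which chose them, ran from 138 through a median of 2865 to 14800 UMIs per 1000000 UMIs (counts scaled to a common depth, CPM) in inhibitor members and from 165 through 1808 to 14976 CPM in DMSO members. Spp1, also used by the rule, had a median of 1807 CPM in inhibitor members and 2037 CPM in DMSO members, with highest cells at 45881 CPM (inhibitor) and 46259 CPM (DMSO). The ranges of both genes, whose low ends depend on the rule, overlapped almost wholly between the libraries. The upper quartile of Gpnmb was nonetheless 6326 CPM in inhibitor members and 3519 CPM in DMSO members, and that of Spp1 7195.6 CPM (inhibitor) and 7233.5 CPM (DMSO).

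Fabp5 and Trem2 played no part in the rule and were found in nearly all members. Fabp5 was detected in 93.6% of inhibitor members and 96.9% of DMSO members, at a median of 6632 CPM per cell in inhibitor members and 4694 CPM in DMSO members. Trem2 was detected in 95.7% of inhibitor members and 92.9% of DMSO members, with medians of 1165 CPM (inhibitor) and 703 CPM (DMSO). In the other C1q cells Fabp5 was detected in 22.7% of inhibitor cells and 49.6% of DMSO cells, and Trem2 in 57.7% (inhibitor) and 59.8% (DMSO). Smooth muscle cells, which stand for free RNA here, carried Fabp5 in 16.7% (inhibitor) and 31.8% (DMSO) of cells and Trem2 in 2.78% (inhibitor) and 9.59% (DMSO), at a median of 11335 (inhibitor) and 14185 (DMSO) UMIs. These shares compare deeper cells with shallower ones: members had a median of 14593 UMIs in the inhibitor library, against 9680 in the DMSO library, and the other C1q cells 5021 (inhibitor) and 5221 (DMSO). On the depth-corrected scale of summed CPM, Trem2 was at 1232 in inhibitor members and 1001 in DMSO members, against 360 (inhibitor) and 383 (DMSO) in the other C1q cells and 3.22 (inhibitor) and 10.5 (DMSO) in smooth muscle cells.

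Cd5l marked only a fraction of the members. It was detected in 31.9% of inhibitor members and 31.6% of DMSO members, against 1.70% (inhibitor) and 5.70% (DMSO) of the other C1q cells and 0.373% (inhibitor) and 2.57% (DMSO) of smooth muscle cells. Its highest cells held 7964 CPM in the inhibitor library, against 25239 CPM in the DMSO library. All 5 markers were detected together in 15 inhibitor members (31.9%) and 78 DMSO members (26.5%). Smooth muscle cells had Gpnmb at 3.64 CPM (inhibitor) and 8.61 CPM (DMSO) and Spp1 at 14.7 CPM (inhibitor) and 75.5 CPM (DMSO). Fibroblasts, however, held Gpnmb at 178 CPM in the inhibitor library, against 135 CPM in the DMSO library.

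**Figure D2:**
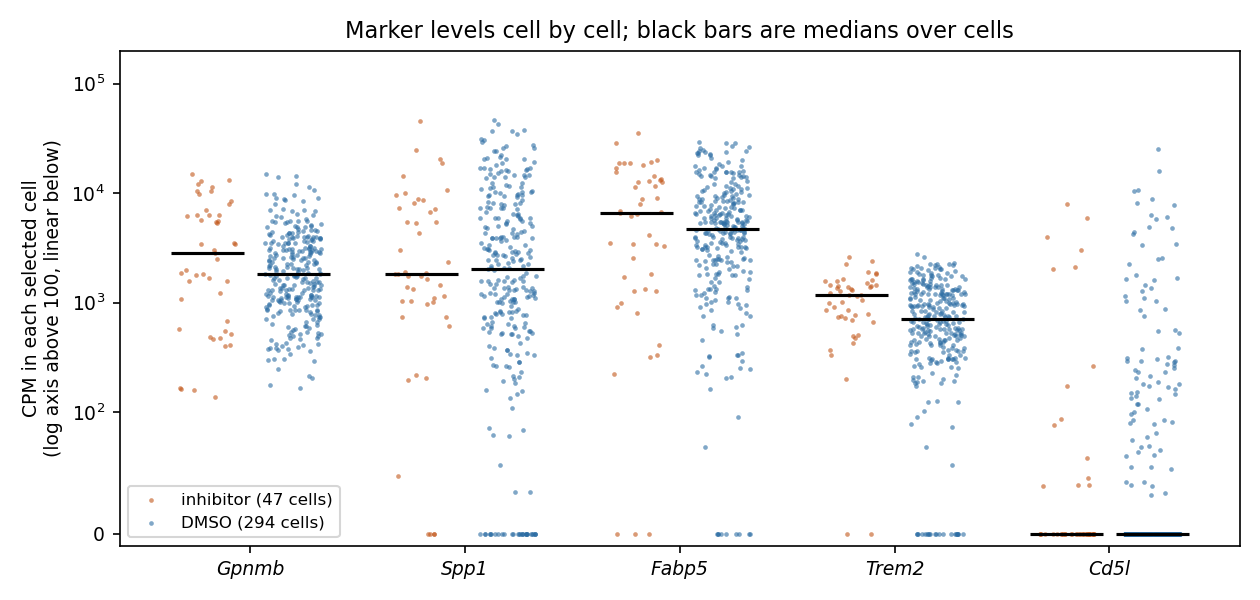
Level per cell of Gpnmb, Spp1, Fabp5, Trem2 and Cd5l (CPM) in the 47 inhibitor members (left of each pair) and 294 DMSO members (right), each point a cell and black bars the medians. Gpnmb and Spp1 chose the cells, Fabp5 and Trem2 lie above 0 in nearly all of them, and the Cd5l median is 0 in both libraries.

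The members also carried general macrophage genes. Lyz2, encoding lysozyme, was at 19418 CPM in inhibitor members and 16801 CPM in DMSO members, and Cd68, a lysosomal glycoprotein of macrophages, at 1411 CPM (inhibitor) and 1329 CPM (DMSO). Csf1r, the receptor for the growth factor M-CSF, was at 263 CPM (inhibitor) and 302 CPM (DMSO) in members, against 746 CPM (inhibitor) and 601 CPM (DMSO) in the other C1q cells. Mertk, a receptor for dying cells, was at 164 CPM (inhibitor) and 171 CPM (DMSO), the antibody receptor gene Fcgr1 at 231 CPM (inhibitor) and 246 CPM (DMSO), and the endotoxin co-receptor gene Cd14 at 246 CPM (inhibitor) and 239.8 CPM (DMSO). Adgre1, encoding the surface antigen F4/80, was at 172 CPM (inhibitor) and 204 CPM (DMSO). These macrophage markers were thus present in the members of both libraries. Apoe was detected at 1342 CPM in inhibitor members and 1568 CPM in DMSO members, and counts from the transcript's end do not check the knockout allele. In the summed markers of other cell types, fibroblast genes were at 2813 CPM in inhibitor members and 2826 CPM in DMSO members. The other C1q cells held them at 2423 CPM (inhibitor) and 3358 CPM (DMSO). Smooth muscle genes were at 924 CPM (inhibitor) and 658 CPM (DMSO) in members, against 4765 CPM (inhibitor) and 1196 CPM (DMSO) in the other C1q cells. T cell markers were at 0 CPM (inhibitor) and 4.36 CPM (DMSO), B cell markers at 2.73 CPM (inhibitor) and 7.85 CPM (DMSO), neutrophil markers at 55.9 CPM (inhibitor) and 80.2 CPM (DMSO), endothelial markers at 73.7 CPM (inhibitor) and 77.3 CPM (DMSO), and dendritic cell markers at 1.36 CPM (inhibitor) and 11.3 CPM (DMSO). Adipocyte markers were at 1.36 CPM in inhibitor members and 57.6 CPM in DMSO members, Schwann cell markers at 27.3 CPM (inhibitor) and 41.3 CPM (DMSO), and mast cell markers at 2.73 CPM (inhibitor) and 5.23 CPM (DMSO). None of the markers in those lists counted as measured in members by the limits of the next comparison. Those limits leave out genes far below their level in another cell type, so this does not show that other cells' RNA was absent. At least 3 UMIs of T cell, B cell, endothelial, smooth muscle and fibroblast markers together were in 16 of 47 inhibitor members and 68 of 294 DMSO members.

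Beside the other C1q cells of their own library, the members were rich in lysosomal and lipid genes and poor in class II and resident macrophage genes. A gene counted as measured here when each library had at least 20 CPM in members or in other C1q cells, and 20 UMIs over both classes. The higher CPM of the classes also had to reach 20% of that in the comparison cell type where the gene was highest. A measured gene was called here when its CPM differed at least 2-fold, with an interval leaving out 1, in both libraries. Of 5727 measured genes 159 were higher (2.78%) and 156 lower (2.72%). The rule used the same counts, so these values describe the members and nothing is read from the shares. The median log2 difference of all measured genes was -0.12 (inhibitor) and -0.09 (DMSO).

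Lysosomal genes led the description. Of 17 measured v-ATPase subunits, the proton pump that acidifies lysosomes, 7 were higher and none lower. Atp6v0d2, a subunit of macrophages and osteoclasts, stood at 291 CPM in inhibitor members against 6.64 CPM in their other C1q cells, and at 358 against 12.6 CPM in the DMSO library. Among cathepsins and legumain 7 of 13 were higher: Ctsb, Ctsd, Ctsl, Ctss, Ctsz, Tpp1 and the cathepsin inhibitor gene Cstb. Ctsb was at 13579 against 2902 CPM in the inhibitor library and 13404 against 4244 CPM in the DMSO library, and Ctsd at 7308 against 1042 CPM (inhibitor) and 8489 against 1890 CPM (DMSO). Of 19 measured lysosomal hydrolase and membrane genes 4 were higher (Cd63, Psap, Lipa, Naglu), and of 4 osteoclast genes 2. One was Acp5, the tartrate-resistant acid phosphatase of osteoclasts, at 385 against 36.3 CPM in the inhibitor library and 381 against 79.3 CPM in the DMSO library. The lists' median log2 differences were 1.16 (inhibitor) and 0.80 (DMSO) for v-ATPase, 1.07 (inhibitor) and 1.08 (DMSO) for cathepsins, 0.81 (inhibitor) and 0.54 (DMSO) for lysosomal genes, and 1.35 (inhibitor) and 0.94 (DMSO) for osteoclast genes. Among 12 transcription factors, Bhlhe41 alone was higher, and Mitf, a regulator of lysosomal genes, had ratios of 0.930 (inhibitor) and 1.30 (DMSO).

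Lipid storage genes were higher as well. Of 7 measured lipid droplet and fatty acid binding genes 5 were higher. Plin2, which coats lipid droplets, was at 1061 against 315 CPM in the inhibitor library and 1189 against 531 CPM in the DMSO library. Soat1, which esterifies cholesterol, had ratios of 4.11 (inhibitor) and 2.91 (DMSO), Nceh1, a cholesteryl ester hydrolase, 4.12 (inhibitor) and 2.61 (DMSO), and Hilpda, an inhibitor of droplet lipolysis, 2.40 (inhibitor) and 2.25 (DMSO). The fifth was Fabp5. Higher were 2 of 11 genes of cholesterol efflux and LXR: Nr1h3, encoding LXR alpha, at ratios of 6.63 (inhibitor) and 2.35 (DMSO), and Lipa, encoding lysosomal acid lipase, at 3.36 (inhibitor) and 2.70 (DMSO). Abca1, the exporter of cholesterol to apolipoprotein A-I, was at ratios of 2.02 (inhibitor) and 1.53 (DMSO) and was not called. Of 8 uptake genes Lpl, encoding lipoprotein lipase, and Cd68 were higher, with Lpl at 1130 against 211 CPM in the inhibitor library and 1317 against 443 CPM in the DMSO library.

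The other genes with the largest ratios included secreted and surface proteins. Mmp12, the macrophage elastase that cleaves elastin, was at 981 against 49.6 CPM in the inhibitor library and 757 against 70.1 CPM in the DMSO library. Lgals3, the lectin galectin-3, was at 8034 against 915 CPM (inhibitor) and 6620 against 1552 CPM (DMSO), and Syngr1, a vesicle membrane protein, at 503 against 15.7 CPM (inhibitor) and 327 against 23.6 CPM (DMSO). F7, encoding coagulation factor VII, had ratios of 20.01 (inhibitor) and 10.8 (DMSO), Rnf128, a ubiquitin ligase, 25.3 (inhibitor) and 10.1 (DMSO), Il18bp, an antagonist of interleukin-18, 5.20 (inhibitor) and 6.33 (DMSO), and Anpep, aminopeptidase N, 12.4 (inhibitor) and 4.41 (DMSO). Cd5l had ratios of 23.0 (inhibitor) and 62.4 (DMSO) and Fabp5 of 52.0 (inhibitor) and 13.9 (DMSO). Lhfpl2, Gpr137b and Lrp12 completed the 15 highest with Atp6v0d2, Acp5 and Ctsd. All 15 were ranked from genes called higher in both libraries, so their shared direction follows from that choice. Iron genes were higher in 4 of 13 and lower in 1, Cd163, the haemoglobin scavenger receptor. Slc40a1, the iron exporter ferroportin, had ratios of 5.45 (inhibitor) and 3.70 (DMSO), and Fth1, the ferritin heavy chain, was at 21118 against 8509 CPM (inhibitor) and 21142 against 9283 CPM (DMSO).

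All 7 measured class II genes were lower, with H2-Aa at 1079 against 4179 CPM in the inhibitor library and 1506 against 5295 CPM in the DMSO library. Of 10 resident macrophage genes 6 were lower, and the mannose receptor gene Mrc1 was at 126 against 1293 CPM (inhibitor) and 332 against 895 CPM (DMSO). Ccr2, the receptor that brings monocytes into tissue, was at 38.2 against 505 CPM (inhibitor) and 111 against 632 CPM (DMSO), and Cx3cr1, the fractalkine receptor, at 30.01 against 309.8 CPM (inhibitor) and 41.9 against 298 CPM (DMSO). The 2 chemokine receptors were among the 10 lowest genes, which were ranked from genes called lower in both libraries. Retnla, a secreted protein of alternatively activated macrophages, had no UMI in inhibitor members, which allows up to 4.09 CPM, against 994 CPM in their other C1q cells, and 16.9 against 559 CPM in the DMSO library. The lectin gene Mgl2 was at 4.09 against 412 CPM (inhibitor) and 4.65 against 164 CPM (DMSO), and Clec4b1, Hpgd, Ccnd1, Plbd1, Lifr and Abca9 were also among the 10 lowest. Interferon-stimulated genes were lower in 4 of 10, cell cycle genes in 4 of 9, monocyte genes in 2 of 6 with Itgax higher, and inflammatory genes in 1 of 7. Growth and matrix factors were higher in 3 of 12, matrix proteases and inhibitors in 2 of 7, TREM2 signalling in 1 of 8, the receptor gene itself, and glycolysis in 1 of 12. Neither direction was called among 12 apoptotic cell uptake, 11 heat shock, 8 immediate early and 2 fatty acid oxidation genes.

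**Figure D3:**
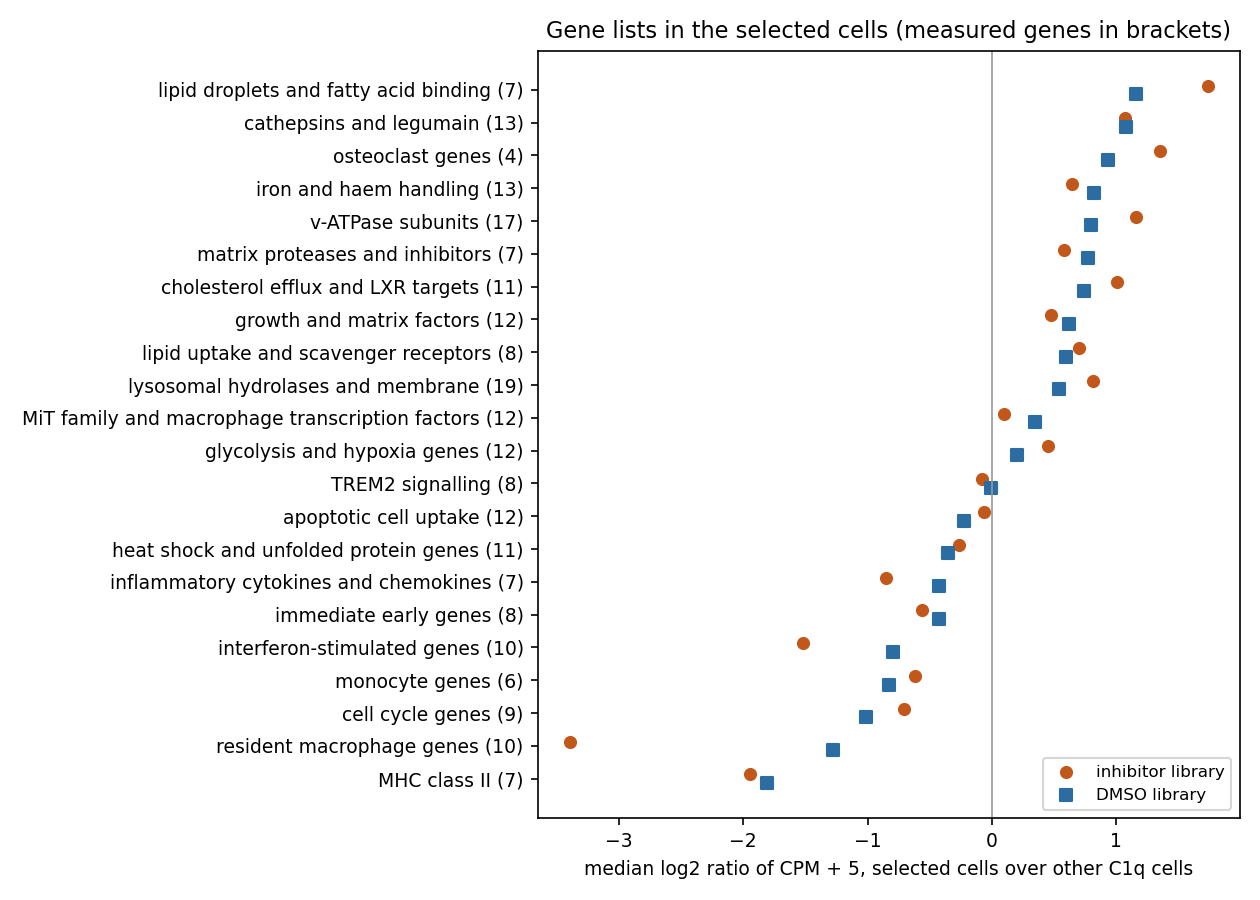
Median log2 ratio of members over the other C1q cells of the same library for each gene list (rows), with the inhibitor library and the DMSO library as separate points. Lipid droplet, osteoclast, v-ATPase and cathepsin genes lie right of 0 in both libraries, and class II and resident macrophage genes left of it.

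The members were not uniform. Cells with at least 2 Cd5l UMIs were 10 of 47 in the inhibitor library, against 52 of 294 in the DMSO library, and cells with at least 2 Mmp12 UMIs were 21 in the inhibitor library (44.7%; 30.2 to 59.9%) and 73 in the DMSO library (24.8%; 19.997 to 30.2%). Both subsets were deeper than the remaining members, at a median of 15514 against 14542 UMIs for Cd5l in the inhibitor library and 14680 against 8777 in the DMSO library. For Mmp12 the medians were 21299 against 11035 UMIs in the inhibitor library and 15470 against 7831 in the DMSO library. A deep cell reaches 2 UMIs more easily, and inhibitor members were deeper than DMSO members, so the subsets' shares also depend on depth. Mfge8, Gpnmb and Fabp5 were higher in the Cd5l subset, but they were singled out after their values were seen, so their shared direction follows from that choice. Mfge8, which bridges dying cells to macrophages, was at 728 CPM in Cd5l-positive against 146 CPM in the remaining inhibitor members, and at 1053 against 85.3 CPM in DMSO members. Gpnmb was at 6708 against 3399 CPM in inhibitor members and 6022 against 2381 CPM in DMSO members, and Fabp5 at 17462 against 8198 CPM (inhibitor) and 13096 against 6739 CPM (DMSO). The chemokine gene Ccl2 ran the other way, with no UMI against 440 CPM in inhibitor members and 56.0 against 289 CPM in DMSO members, as did S100a4, encoding a calcium-binding protein, at 39.7 against 383 CPM (inhibitor) and 47.7 against 285 CPM (DMSO).

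In Mmp12-positive members Lpl was at 1679 against 519 CPM in the inhibitor library and 2272 against 688 CPM in the DMSO library. Lgals3 was at 10012 against 5834 CPM (inhibitor) and 9344 against 4827 CPM (DMSO), and Spp1 at 7258 against 4107 CPM (inhibitor) and 10804 against 4519 CPM (DMSO). Apoe was lower in these cells, at 881 against 1856 CPM in the inhibitor library and 1165 against 1833 CPM in the DMSO library. Mmp12 and Cd5l overlapped in 5 inhibitor members and 20 DMSO members. Members with class II genes at 1% of UMIs or more that were not resident-type numbered 9 (inhibitor) and 63 (DMSO), and their Spp1 was at 2441 against 6287 CPM in the inhibitor library and 1146 against 8120 CPM in the DMSO library. Resident-type members numbered 2 of 47 (4.26%) in the inhibitor library and 61 of 294 (20.7%) in the DMSO library, while the other C1q cells were resident-type in 44.4% (inhibitor) and 22.6% (DMSO). The members' resident-type share was thus below that of the other C1q cells in the inhibitor library and near it in the DMSO library.

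Between the libraries, the members of the inhibitor library had more chaperone transcripts and fewer immediate early, interferon-stimulated and resident macrophage transcripts than those of the DMSO library, while the lipid and lysosomal genes that mark the cells mostly stayed inside the limit for a call. For this comparison a gene counted as measured with at least 20 CPM in the members of 1 library and 20 UMIs over those of both. It also needed 20% of its CPM in the comparison cell type where it was highest. A gene was called here at a ratio of inhibitor over DMSO of at least 1.5, or at most its inverse, with an interval leaving out 1. Of 5776 measured genes 304 were higher (5.26%) and 532 lower (9.21%), and the median log2 ratio was -0.02. Without each gene's top cell 157 were higher and 742 lower. That setting takes 1 of 47 inhibitor members but 1 of 294 DMSO members, so it weighs more on the inhibitor sums. The median log2 ratio of all measured genes was -0.12 there, so ratios without the top cell are shifted down. With members thinned to 3000 UMIs 73 of the 304 and 150 of the 532 were called again. The sums hold 732994 UMIs from inhibitor members and 3439830 from DMSO members. A single cell can move a gene in a sum over 47 cells, so the share held by the top cell is given where it decides a value.

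Chaperone genes were among the higher genes. Of 13 measured heat shock and unfolded protein genes 10 were higher and 0 lower, and the median log2 ratio was 0.72. Creld2, a chaperone of the endoplasmic reticulum that stress induces, was at 121 CPM in inhibitor members and 42.7 CPM in DMSO members (ratio 2.84; 2.16 to 3.72). Hspe1 and Hspd1, the mitochondrial chaperonins, were at 551 and 255 CPM in inhibitor members, against 267 and 130 CPM in DMSO members. The cytosolic chaperone gene Hspa8 was at 1976 CPM in inhibitor members and 1108 CPM in DMSO members (ratio 1.78; 1.68 to 1.90). Outside the list, Sdf2l1, a cofactor of chaperones in the endoplasmic reticulum, was at 547 CPM (inhibitor) and 188 CPM (DMSO), a ratio of 2.91 (2.57 to 3.30), and Manf, a secreted protein of the same stress response, at 637 CPM (inhibitor) and 288 CPM (DMSO), a ratio of 2.21 (1.97 to 2.47). Hspa5, the main chaperone of that compartment, was called with them. The direction was not limited to the members, as in the other C1q cells the list's median was 0.64. Over all cells its genes summed to 24430 CPM in the inhibitor library, against 8604 CPM in the DMSO library. Those sums include the members and depend on each library's make-up, with more smooth muscle cells in the inhibitor library. Without the members holding at least 2 Cd5l UMIs, 7 of the list's 13 measured genes were higher.

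Other genes ranked among the highest were Cd72, an inhibitory lectin of B cells and macrophages, at 233 CPM in inhibitor members and 73.0 CPM in DMSO members, of which 1 inhibitor cell held 31.0% (ratio without each library's top cell 2.51), and Pdgfa, a growth factor for smooth muscle and fibroblasts, at 210.1 CPM (inhibitor) and 98.0 CPM (DMSO), a ratio of 2.14 (1.76 to 2.60). Basp1 was at 544 CPM (inhibitor) and 293 CPM (DMSO), Rap2a, a small GTPase, at 196 CPM (inhibitor) and 95.4 CPM (DMSO), and the mitochondrial folate enzyme gene Mthfd2 at 55.9 CPM (inhibitor) and 22.1 CPM (DMSO). Syngr1 was at 503 CPM in inhibitor members and 327 CPM in DMSO members (ratio 1.54, interval 1.36 to 1.73), but at 15.7 CPM (inhibitor) and 23.6 CPM (DMSO) in the other C1q cells. Its ratio without each library's top cell, a setting that shifts ratios down, was 1.48, just under the limit for a call. Of 6 cell cycle genes 4 were higher (Tyms, Mcm3, Mcm6 and Stmn1). Tyms, for the synthesis of thymidylate, was at 25.9 CPM in inhibitor members and 6.40 CPM in DMSO members, with 47.4% of the inhibitor UMIs in 1 cell. Without each gene's top cell 0 of 4 measured cell cycle genes were called, with ratios of 1.68 (0.971 to 2.80) for Mcm3, 1.70 (0.897 to 3.07) for Mcm6 and 1.12 (0.750 to 1.64) for Stmn1, and Tyms under 20 CPM in both libraries. Without the members holding at least 2 Cd5l UMIs 8 of 9 were higher.

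Timp1, an inhibitor of matrix metalloproteinases, had the highest ratio: 808 CPM in inhibitor members and 93.9 CPM in DMSO members (ratio 8.60; 7.498 to 9.88). One inhibitor cell held 97.1% of those UMIs, and without each library's top cell Timp1 was at 24.9 CPM in inhibitor members and 88.3 CPM in DMSO members. The same cell held 96.3% of the inhibitor UMIs of Prg4, encoding the lubricant proteoglycan 4, and 97.0% of those of the chemokine gene Cxcl14. It had 51318 UMIs, with 739 of Col3a1 and 115 of Dcn beside 99 of C1qb and 24 of Gpnmb, and Scrublet called it a doublet. Another single cell held 94.4% of the inhibitor UMIs of Ly6c2, a monocyte gene at 73.7 CPM (inhibitor) and 9.30 CPM (DMSO). These 4 genes therefore describe single cells.

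The lower genes included every measured resident macrophage gene. All 7 (Folr2, Mrc1, Pf4, Selenop, Clec10a, Fcgrt and Wwp1) had lower sums, the median log2 ratio was -1.37, and the same list had a median of 0.23 in the other C1q cells. Some passed the 20 CPM minimum only through the DMSO library, and with 20 CPM or more in both libraries 5 of 5 were lower, at a median of -0.91. Folr2, the folate receptor beta of resident macrophages, was at 15.01 CPM in inhibitor members and 69.5 CPM in DMSO members (ratio 0.216; 0.106 to 0.393), but at 217 CPM (inhibitor) and 123 CPM (DMSO) in the other C1q cells. Without the top cell of each library its ratio was 0.129. Pf4, encoding platelet factor 4, was at 94.1 CPM (inhibitor) and 321 CPM (DMSO) in the members, a ratio of 0.293 (0.227 to 0.374), and at 976 CPM (inhibitor) and 440.4 CPM (DMSO) in the other C1q cells. Both genes thus ran in opposite directions in members and other C1q cells. The share of resident-type cells did so too. It was 4.26% (inhibitor) and 20.7% (DMSO) in members and 44.4% (inhibitor) and 22.6% (DMSO) in the other C1q cells. The part of this make-up in the values of Folr2 and Pf4 was not tested. Mrc1 was at 126 CPM in inhibitor members and 332 CPM in DMSO members (ratio 0.378; 0.302 to 0.467). Resident-type members were fewer in the inhibitor library, as given above, and without them 4 of 5 measured genes of the list were lower, at a median of -0.77. Folr2 itself helped to define that type.

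Interferon-stimulated genes, which cells switch on after interferon binds its receptor, were lower in 9 of 9, at a median log2 ratio of -1.20 against -0.44 in the other C1q cells. Irf7, a transcription factor of the response, was at 34.1 CPM in inhibitor members and 84.6 CPM in DMSO members, and the antiviral gene Oasl2 at 23.2 CPM (inhibitor) and 63.7 CPM (DMSO). Cxcl10, a chemokine that attracts T cells, had 3 UMIs (4.09 CPM) in inhibitor members and 210 UMIs (61.1 CPM) in DMSO members. Cxcl9, a related chemokine, had no UMI in inhibitor members, which allows up to 4.09 CPM, and 57.6 CPM in DMSO members, where 4.08% of the cells carried it and 1 cell held 47.0%. Several of the genes were close to the minimum of 20 CPM, and of the 5 at or above it in both libraries all were lower.

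Immediate early genes, which cells transcribe within minutes of a stimulus and which tissue digestion also induces, were lower in 7 of 10 (median log2 ratio -0.96). Egr1 was at 175 CPM in inhibitor members and 612 CPM in DMSO members (ratio 0.286), Fosb, another transcription factor, at 88.7 CPM (inhibitor) and 326 CPM (DMSO), a ratio of 0.272, and Klf2 at 84.6 CPM (inhibitor) and 338 CPM (DMSO), a ratio of 0.251 (0.191 to 0.324). The other C1q cells had a median of -0.92 for this list, and over all cells its genes summed to 4383 CPM in the inhibitor library, against 7555 CPM in the DMSO library. The difference was thus of like size in the other C1q cells. The sums over all cells include the members and depend on each library's make-up.

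Single genes of signalling and traffic were among the lowest. Ccl8, a chemokine that attracts monocytes and T cells, was at 36.8 CPM in inhibitor members, where 23.4% of cells carried it, and at 770 CPM in DMSO members, where 53.1% did (ratio 0.0479; 0.0315 to 0.0698). In the other C1q cells Ccl8 was at 492 CPM (inhibitor) and 1034 CPM (DMSO). Vcam1, an adhesion molecule for leukocytes, was at 13.6 CPM (inhibitor) and 134 CPM (DMSO) in the members, a ratio of 0.102, and at 91.1 CPM (inhibitor) and 105 CPM (DMSO) in the other C1q cells, and Icam1, another, at 36.8 CPM (inhibitor) and 129 CPM (DMSO) in the members. Tfrc, the transferrin receptor, was at 19.1 CPM in inhibitor members and 96.5 CPM in DMSO members (ratio 0.198). The lectin gene Clec4a1 was at 25.9 CPM (inhibitor) and 119.8 CPM (DMSO), and Gdf3, a growth factor of the TGF-beta family, at 10.9 CPM (inhibitor) and 52.6 CPM (DMSO). Ccl6, a chemokine of mouse myeloid cells, was at 759.9 CPM (inhibitor) and 1524 CPM (DMSO). Of 6 measured inflammatory genes 3 were lower (Ccl6, Ccl8, Ccl9) and 2 higher (Cxcl16 and Ccl2), with Ccl2 no longer called without the top cell of each library.

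Some genes that were high in the members were lower in the inhibitor members, Ctsl, Cd5l and Il18bp among them. Cathepsin L, a cysteine protease encoded by Ctsl, was at 1888 CPM in inhibitor members and 4486 CPM in DMSO members (ratio 0.421; 0.398 to 0.445, or -1.25 on the log2 scale). Cd5l was at 306 CPM in inhibitor members and 1112 CPM in DMSO members (ratio 0.275; 0.239 to 0.315), with a Cd5l UMI in 31.9% of inhibitor and 31.6% of DMSO members. Il18bp was at 64.1 CPM in inhibitor members and 124 CPM in DMSO members (ratio 0.515). These 3 differences lay in summed UMIs, to which deep cells give more: as a mean of each cell's CPM, the log2 ratio was -0.04 for Cd5l, -0.19 for Ctsl and 0.31 for Il18bp, and none passed the 1.5-fold limit. Much of the Ctsl difference lay in the cells with at least 2 Cd5l UMIs, where Ctsl was at 2212 CPM in inhibitor members and 10133 CPM in DMSO members. In the remaining members it was at 1804 CPM (inhibitor) and 2284 CPM (DMSO) and was no longer called. In Mmp12-positive cells Ctsl was at 2031 CPM (inhibitor) and 8333 CPM (DMSO), and in the remaining members at 1729 CPM (inhibitor) and 1955 CPM (DMSO).

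Most of the remaining lipid and lysosomal genes stayed inside the 1.5-fold limit between the libraries. None of 8 lipid droplet genes was called (median log2 ratio 0.05), with Plin2 at 1061 CPM in inhibitor members and 1189 CPM in DMSO members and Fabp5 at 10106 CPM (inhibitor) and 8523 CPM (DMSO). Of 11 efflux and LXR genes 2 were lower, Pltp, the phospholipid transfer protein, at 843 CPM (inhibitor) and 1391 CPM (DMSO), and Mylip, a ubiquitin ligase that LXR induces, at 172 CPM (inhibitor) and 265 CPM (DMSO). Among uptake genes Stab1, a scavenger receptor, was lower at 165 CPM (inhibitor) and 309 CPM (DMSO). Cd36, another scavenger receptor, was at 172 CPM in inhibitor members and 397 CPM in DMSO members but fell short of the comparison with the cell type where it was highest, and was not counted as measured. Ctsl was the 1 called gene of 13 cathepsins, Sqstm1 of 20 lysosomal genes and Atp6v0a1 of 17 v-ATPase subunits, all lower. Gpnmb was at 4081 CPM (inhibitor) and 3403 CPM (DMSO) and Spp1 at 5767 CPM (inhibitor) and 7013 CPM (DMSO), both genes used by the rule. Mmp12 was at 981 CPM in inhibitor members and 757 CPM in DMSO members (ratio 1.30; 1.19 to 1.41), inside the 1.5-fold limit, but as a mean of each cell's CPM its log2 ratio was 1.01, and that of Gpnmb 0.73. Lgals3 had a ratio of 1.21, Cd63 of 1.28, Ctsd of 0.861 and Psap of 0.843, all 4 inside that limit.

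**Figure D4:**
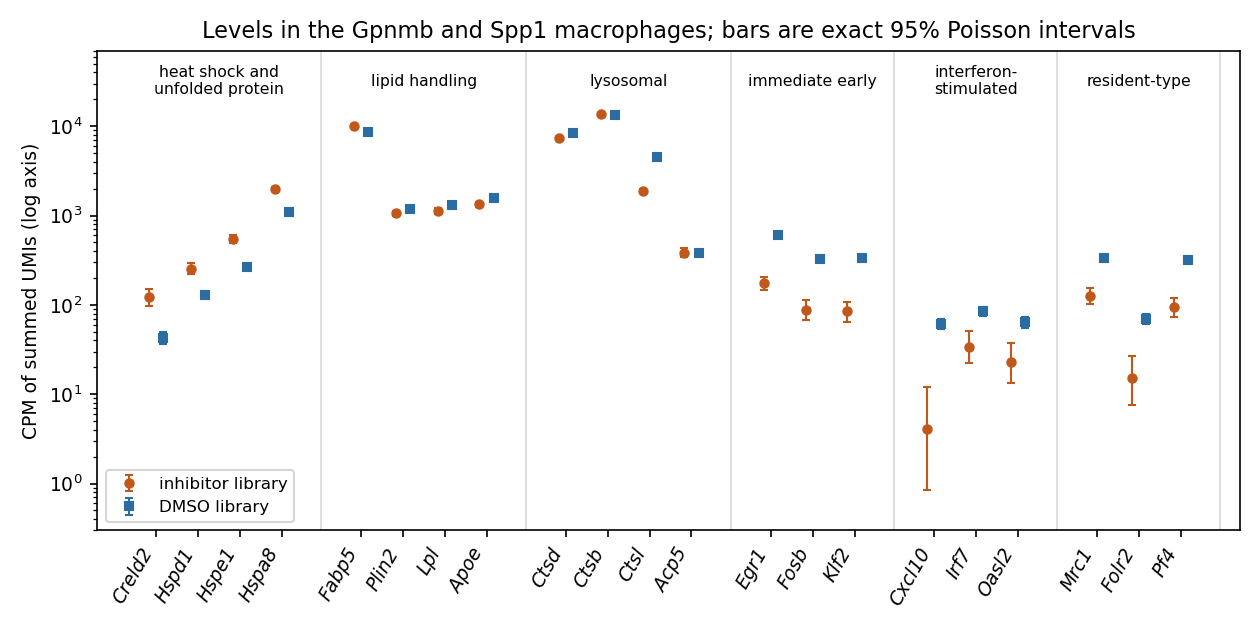
Level in the summed members (CPM, log axis, with exact Poisson 95% intervals of counting error) of chaperone, lipid, lysosomal, immediate early, interferon-stimulated and resident macrophage genes, inhibitor left of DMSO for each gene. Creld2, at 121 CPM in inhibitor members and 42.7 CPM in DMSO members, was higher in inhibitor members, Plin2 and Ctsb were not called, and Ctsl, Egr1, Irf7 and Folr2 were lower.

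The other lists moved in few genes. MHC class II genes were lower in 2 of 7 (H2-DMa and Ciita, the regulator of class II transcription), iron and haem genes in 2 of 12 (Tfrc and Trf), TREM2 signalling in 1 of 8 (Syk) and glycolysis in 1 of 13 (Arg1, an arginine-degrading enzyme in that list, at 85.9 CPM in inhibitor members and 190 CPM in DMSO members). Apoptotic cell uptake had Havcr2 higher and Stab1 lower of 12, transcription factors Bhlhe41 higher and Maf lower of 13, and growth and matrix factors Pdgfa higher and Thbs1, encoding thrombospondin-1, lower of 12. Of 9 proteases and inhibitors Timp1 was higher and Mmp19 and Adam15 lower, and of 5 monocyte genes Ly6c2 and S100a6 were higher and Chil3 lower. None of 5 osteoclast and 3 fatty acid oxidation genes was called.

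**Figure D5:**
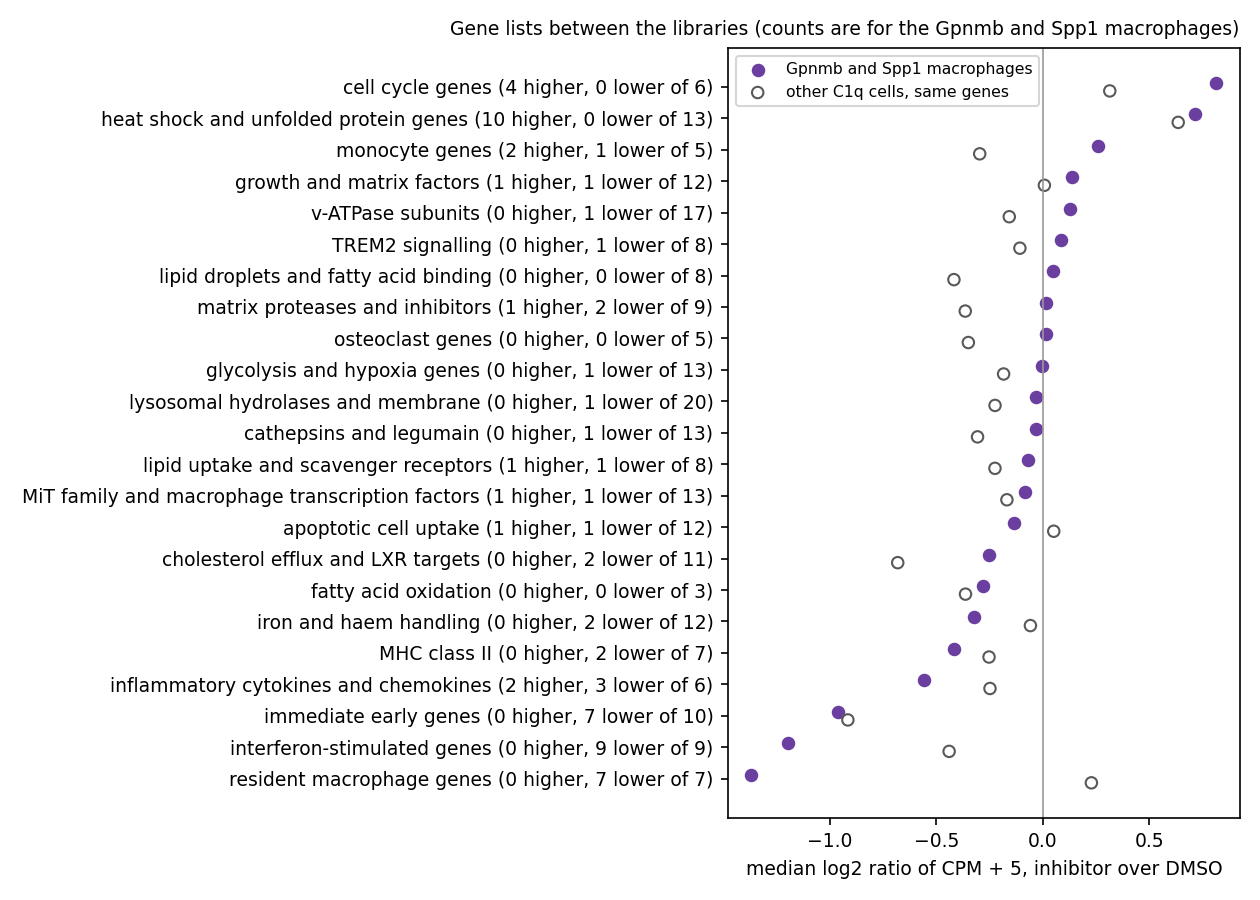
Median log2 ratio of inhibitor over DMSO for each gene list (rows), in the members (filled) and in the other C1q cells (open). Resident macrophage genes lie at -1.37 in members and 0.23 in the other C1q cells, while heat shock genes, at 0.72 in members and 0.64 in the other C1q cells, and immediate early genes, at -0.96 and -0.92, lie close together.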

How the data were processed

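Single-cell libraries of dissociated aneurysmal aorta were made with 10x Genomics 3' chemistry, per the labels' protocols. The authors deposited 2 matrices of UMI counts (genes by barcodes, not normalized). Per the file headers they come from Cell Ranger 6.1.1, and GRCm38 and Seurat stand in the submitters' processing notes. No source used here gives the filters applied before deposit. The matrix labelled D_A was read as DMSO and IN_A as inhibitor, the words of the series title.

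Barcodes under 200 genes (10 inhibitor and 18 DMSO barcodes) or over 20% mitochondrial UMIs (282 and 443) were left out. The files held 79648307 inhibitor and 101139161 DMSO UMIs. UMIs were summed over the members of each library and divided by the summed total (CPM). Ratios carry exact conditional Poisson 95% intervals and shares Clopper-Pearson intervals. Log2 ratios used CPM plus 5. With 1 library per group no test was possible and no p-value was computed. Named genes were the markers with Apoe, the 15 highest and 10 lowest called genes of the members against other C1q cells (at least 50 CPM), the 15 highest and 15 lowest between the libraries by the interval bound nearest 1, up to 4 called genes of each list, and the 5 genes most like Gpnmb. Mfge8, S100a4 and other genes outside that rule were chosen after their values were seen. Members, lists, motifs and tests were chosen with earlier results of these data known. Doublets were kept in the main values. Scrublet (scanpy 1.11.5, at an expected 6%) set its threshold at 0.214 in the inhibitor library (440 cells) but at 0.659 in the DMSO library, where it called 0, so 0.214 was used for both (253 DMSO cells, 4 inhibitor and 23 DMSO members).

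The calls were checked on simulated sums, drawn from a pooled profile with counting error only. The sums held no differences between cells, so the shares below do not cover what single cells add in the real sums. For members over other C1q cells, 5.88% of genes raised 2-fold, 40.62% of those lowered 2-fold and 100% of those raised 3-fold were called in both libraries. Between the libraries, 97.06% of genes raised 2-fold, 84.38% of those lowered 2-fold, 55.88% of those raised 1.5-fold and 35.48% of those lowered 1.5-fold were called, and 170 of 6234 unchanged genes. Python 3.11.15, numpy 2.4.6, scipy 1.17.1 and pandas 2.3.3 were used. Promoters are RefSeq's (GRCm38.p6) and positions GENCODE's (M21). All 55450 gene IDs matched, and Aldoa, with more than 1 ID, was left out of its list. Some listed genes are not reported here by name.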

Additional observations from a re-analysis of the deposited data

Results flagged for a closer look

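Of 5776 measured genes, 304 were called higher and 532 lower in inhibitor members, and 36 and 86 of these had the same call in the other C1q cells. Opposite calls were 11 for genes higher in inhibitor members and lower in the other C1q cells of the inhibitor library, and 4 the other way. The share of all measured genes called in the other C1q cells is not given here, so nothing is read from these counts. The 6 named genes with opposite calls are given here. The difference between those directions was not tested, because there was 1 library in each group. Folr2 (log2 ratio -1.90 in members) and Pf4 (-1.72) were lower in inhibitor than DMSO members and higher in the other C1q cells of the inhibitor library. The share of resident-type cells was also lower in inhibitor members and higher in their other C1q cells, and its part was not tested. Syngr1 (0.61) was higher in inhibitor members and lower in their other C1q cells. Timp1 (3.04), Prg4 (2.82) and Cxcl14 (2.73) were higher in inhibitor members through the single cell described above and lower in the other C1q cells.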

How the results depend on the processing

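The members' lower share in the inhibitor library kept its direction under 11 alternatives, from other minima to thinning each cell to 2000 UMIs, at log2 ratios of -2.84 to -2.40 of all cells and -1.69 to -1.27 of C1q cells. The counts of genes higher and lower in inhibitor members ranged from 71 to 386 and from 228 to 742. A fold of 2 gave 71 higher and 228 lower genes, a minimum of 50 CPM 179 and 311, and members thinned to 3000 UMIs 220 and 241, of which 73 and 150 were among the main 304 and 532. Members with at least 3 UMIs of T cell, B cell, endothelial, smooth muscle and fibroblast markers together were 16 of 47 (inhibitor) and 68 of 294 (DMSO). With such cells left out 372 genes were higher and 595 lower, of which 182 and 377 were among the main 304 and 532. Without each gene's top cell, which takes 1 of 47 and 1 of 294 cells, 157 were higher and 742 lower. Without the cell that held most Timp1 there were 265 and 518, and without resident-type members 284 and 611. These last 3 settings, and those of the gene lists, were chosen after seeing the data. For members over other C1q cells a fold of 1.5 called 347 higher and 445 lower genes. Of 101 named genes 32 moved and 1 reversed as a mean of each cell's CPM, which weights shallow and deep cells alike: Cd5l was -0.04, Ctsl -0.19 and Mmp12 1.01, and Il18bp reversed to 0.31. Without resident-type members 22 moved and with stricter members 17, in both without a reversal. With Scrublet doublets left out Timp1 was -1.58, Prg4 -1.43 and Cxcl14 -1.12, and without each gene's top cell they were -1.64, -0.87 and -1.14, with Ly6c2 at -0.52. Each of those 4 genes had most of its inhibitor UMIs in 1 cell, as given above. Without the top cell the ratio intervals of Prg4 (0.131 to 1.03) and Ly6c2 (0.0995 to 1.66) held 1. For Il18bp the cause of the reversal was not tested. Setting genes with no UMI at 3 UMIs left the lists' medians as given. With Scrublet doublets left out, 7 of 7 resident macrophage, 7 of 7 interferon-stimulated and 8 of 10 immediate early genes were lower and 10 of 13 heat shock genes higher. No paired analysis was possible because each group has 1 library. With 47 inhibitor members, low genes and single cells limit what can be read, and animal differences cannot be told apart from the treatment.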
